A study of Mus musculus with 8 samples.

Results

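Aminoacyl-tRNA synthetases are the enzymes that join each amino acid to its transfer RNA, the step that supplies the ribosome with its building blocks. Their genes were read in tumor-associated macrophages (TAMs) sorted from B16F10 melanomas, a mouse tumor line, after the hosts were given the thiazole antibiotic thiostrepton or its vehicle. The members were taken by name from the deposited raw counts. They are 36 of its 23413 genes, 20 for cytosolic enzymes or their subunits and 16 for mitochondrial enzymes, whose symbols end in 2. All 36 were found, and all 36 passed the filter on low counts in each comparison. The hosts were male B6 mice of 8 to 10 weeks. Thiostrepton was injected intraperitoneally (I.P.) into 4 of them and subcutaneously beside the tumor (S.C., called IS in the labels) into 2, and 2 received only DMSO, the vehicle. Dosing took place 6 and 12 days after the tumor was engrafted, and TAMs were sorted on day 18 as CD45+F4/80+CD11b+ cells lacking Gr-1, with 1 library per mouse. The S.C. dose was 20 mg/kg, lower than the I.P. doses of the paper. The sources used here do not name which of those the 4 I.P. mice received, or how DMSO was injected. S.C. and I.P. mice thus differed in dose as well as in route, and the 2 cannot be told apart.

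The cytosol and the mitochondrion each translate their own messages and mostly use separate synthetases, all of them encoded in the nucleus. Gars and Kars are exceptions, since each gene supplies the enzyme of both compartments. Many cytosolic synthetase genes belong to the amino acid response, in which the transcription factor ATF4 accumulates when uncharged transfer RNA or other stress slows initiation of translation, and then raises genes for amino acid synthesis, uptake and charging. The mitochondrial genes are not part of that classical set. The 20 cytosolic genes were therefore split from general knowledge into 13 linked to ATF4 (Aars, Cars, Eprs, Gars, Iars, Lars, Mars, Nars, Sars, Tars, Vars, Wars and Yars) and 7 others (Dars, Farsa, Farsb, Hars, Kars, Qars and Rars).

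ATF4 binds, with a C/EBP partner, a composite element whose core is TGATGNAA, and this core was looked for on both strands from 250 bases before to 50 bases after each gene's start. RefSeq promoters (GRCm38.p6) were at hand for 26 members. The core was in 5 of the 7 ATF4-linked genes with a promoter, in 0 of the 5 other cytosolic genes and in 0 of the 14 mitochondrial genes. Of all 32851 promoters, 3.97% held it. A gene was counted once if any of its promoters held the core, while the share over all is per promoter. Both counts of 0 are near that share. In the list of 29 further ATF4 programme genes used below, 9 of the 25 genes with a promoter held the core. The 30 bases around the match are shown for 4 members, with Asns and Chac1, textbook ATF4 targets, for comparison. They read 5′ to 3′ on the gene's own strand, and capitals mark the core, as spelled or as its reverse complement.
Gars: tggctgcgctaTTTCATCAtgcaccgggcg
Iars: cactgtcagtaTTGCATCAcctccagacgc
Tars: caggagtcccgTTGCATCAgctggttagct
Yars: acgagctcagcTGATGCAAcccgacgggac
Asns: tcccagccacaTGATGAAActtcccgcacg
Chac1: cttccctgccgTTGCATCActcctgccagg

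The Gars window is chr6:55037960-55037989 on the plus strand, with its first capital 30 bases before the start, and the Tars window is chr15:11399655-11399684 on the minus strand, 15 bases before it. The matches of Iars (chr13:49682126-49682155, plus strand) and Yars (chr4:129189895-129189924, plus strand) lie 8 and 4 bases after the start. The windows of Asns (chr6:7693214-7693243, minus strand) and Chac1 (chr2:119351038-119351067, plus strand) have the match 23 and 193 bases before it. The more specific TGATGCAA, part of the same core, was in 4 of the 7 linked genes and, counted per promoter, in 0.895% of all promoters. A match is a stretch of letters, and binding was not measured.

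Between 14127506 and 17577466 counts were assigned to genes in each mouse, so counting error was small for most members, and values are given as CPM, counts scaled to a common library total, with TMM factors. The lowest count of any member was 30 in the 6 DMSO and I.P. mice, while both S.C. libraries had members under 8 counts. The 6 macrophage markers summed to between 4208 and 5604 CPM in all 8 mice, and the 5 fibroblast markers to at most 1.26 CPM. The macrophage sum weighs the most abundant markers most. The mean log2 CPM of the macrophage markers, minus that of the DMSO mice, was -0.54 in S.C. mouse 1 and 0.49 in S.C. mouse 2. In the I.P. mice it ran from -0.27 to 0.26. Melanoma markers summed to 583 and 644 CPM in the DMSO mice and to between 424 and 1692 CPM in the I.P. mice, highest in I.P. mouse 4. They summed to 2877 CPM in S.C. mouse 1 but to 671 CPM in S.C. mouse 2. Neutrophil markers summed to 28.8 and 226 CPM in the S.C. mice, against at most 32.5 CPM elsewhere, although the sort excluded Gr-1+ cells, and lymphocyte markers to 35.5 and 23.8 CPM against at most 8.72 CPM. At an unadjusted P under 0.05 in edgeR, the macrophage marker Mertk was higher by I.P., where 2.55% of all genes were called higher. Of the 6 macrophage markers, 2 were higher and 4 lower by I.P., with a median log2 fold change of -0.17. By S.C., 2.5% of all genes were called higher. They included the neutrophil genes Ngp, Ltf, S100a9 and Camp, the lymphocyte genes Gzma and Cd79a and the melanoma genes Tyrp1 and Dct. In sorted bulk samples like these, fewer cells with a transcript and less of it per cell cannot be told apart. With edgeR's quasi-likelihood test, 0% of the genes had an adjusted p under 0.05 in I.P. against DMSO mice (0 of 12174), 0% in S.C. against DMSO mice (0 of 11680) and 0% in S.C. against I.P. mice (0 of 12206). The likelihood ratio test and DESeq2 gave 10 and 19 such genes in the first comparison, 179 and 107 in the second and 265 and 234 in the third, with no member among them. Unadjusted P values under 0.05 are therefore counted below beside their share among all genes. For 1 gene on its own, the smallest p of an exact permutation test, with the single-tail p doubled, is 0.133 with 4 mice against 2. It is 0.333 with 2 against 2.

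In the DMSO mice, the cytosolic genes were expressed well above the mitochondrial ones. Levels between genes were compared as CPM per kilobase of the transcript with the longest coding sequence. The median was 37.9 CPM per kilobase over the 20 cytosolic genes and 7.05 over the 16 mitochondrial genes. Nars, for asparagine (103 CPM per kilobase on average, 120 and 86.0 in the 2 mice), and Sars, for serine (97.9 on average, 88.1 and 108), led the order, and their mice overlapped. Dars, Rars and Gars followed at 73.4, 65.3 and 63.2. Qars, for glutamine, was the lowest cytosolic gene at 13.5. Among the mitochondrial genes Lars2 stood highest at 59.8 CPM per kilobase, though its 2 DMSO mice read 21.9 and 97.7, and Tars2 and Rars2 came next at 22.9 and 21.9. Mars2 and Vars2 were the lowest at 1.32 and 1.22, and the Vars2 values of the 2 mice (0.985 and 1.46) spanned the Mars2 mean. The place of Mars2 depends on its transcript of 11294 bases, the longest of the mitochondrial members. Without division by length its mean was 14.9 CPM, beside 5.41 CPM for Vars2.

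After I.P. thiostrepton, none of the 20 cytosolic genes passed an unadjusted P under 0.05, a call made for 3.43% of all genes (edgeR, 418 of 12174). The edgeR likelihood ratio test and DESeq2 also called none. The median log2 fold change of the 20 was -0.11, beside 0.02 over all genes tested, and 9 members were higher and 11 lower. It turned positive without DMSO mouse 1 (0.13) or without I.P. mouse 1 (0.11). The 4 I.P. mice exceeded both DMSO mice for 1 member, Gars, where 7.29% of all genes did so, and below both for Hars and Rars, where 6.88% did. The ATF4-linked and other genes leaned apart, with medians of 0.11 (8 of 13 higher) and -0.19 (1 of 7 higher), a difference that was not tested. The ATF4-linked median was 0.33 without DMSO mouse 1, 0.0045 without DMSO mouse 2, 0.19 and 0.18 without I.P. mice 1 and 3 in turn, and -0.05 without I.P. mouse 4.

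Aars, the alanine enzyme (chromosome 8, 111033144 to 111057664, GRCm38, plus strand), had the highest estimate of the 20. Its level was 135 and 94.3 CPM in the DMSO mice, 134, 152, 116 and 268 CPM in I.P. mice 1 to 4, and 46.0 and 111 CPM in S.C. mice 1 and 2. I.P. mouse 4 stood apart at the top and S.C. mouse 1 at the bottom, and 2 of the 4 I.P. mice lay between the DMSO mice. The log2 fold change by I.P. was 0.54 ± 0.36 (SE), with a 95% interval from -0.28 to 1.35 and an edgeR adjusted p of 0.980. Aars shares 1326 bases with Exosc6 on the same strand, so some of their reads could be exchanged. Exosc6, chosen after the values were seen, was at 26.8 and 26.1 CPM in the DMSO mice and between 15.4 and 21.5 CPM in the I.P. mice, lowest in I.P. mouse 4. The part of shared reads in the Aars counts was not tested.

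Sars, the serine enzyme (chromosome 3, 108424865 to 108445209, minus strand), was at 164 and 201 CPM in the DMSO mice, 294, 246, 197 and 310.1 CPM in the I.P. mice and 214 and 163 CPM in the S.C. mice. I.P. mice 1, 2 and 4 lay above both DMSO mice and I.P. mouse 3 between them. The log2 fold change by I.P. was 0.51 ± 0.25, with an interval from -0.06 to 1.08 and an edgeR adjusted p of 0.980. Its unadjusted P was 0.0738, the lowest of the 20, and 0.0439 without I.P. mouse 3.

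Gars, which charges glycine in the cytosol and in mitochondria (chromosome 6, 55038007 to 55079500, plus strand), was at 147 and 153 CPM in the DMSO mice, 179, 202, 173 and 232 CPM in the I.P. mice and 173 and 120 CPM in the S.C. mice. Every I.P. mouse was above both DMSO mice, and the S.C. mice lay on either side of them. The estimate was 0.38 ± 0.22 on the log2 scale by I.P. (interval -0.11 to 0.87) and -0.03 ± 0.33 for the S.C. mice (interval -0.85 to 0.78). Kars, the lysine enzyme and the other gene that serves both compartments (chromosome 8, 111993443 to 112011323, minus strand), was at 86.9 and 83.6 CPM in the DMSO mice, 64.5, 75.5, 74.9 and 84.5 CPM in the I.P. mice and 77.4 and 69.3 CPM in the S.C. mice. It varied little, and its log2 fold changes were -0.19 ± 0.21 and -0.21 ± 0.30.

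**Figure D1:**
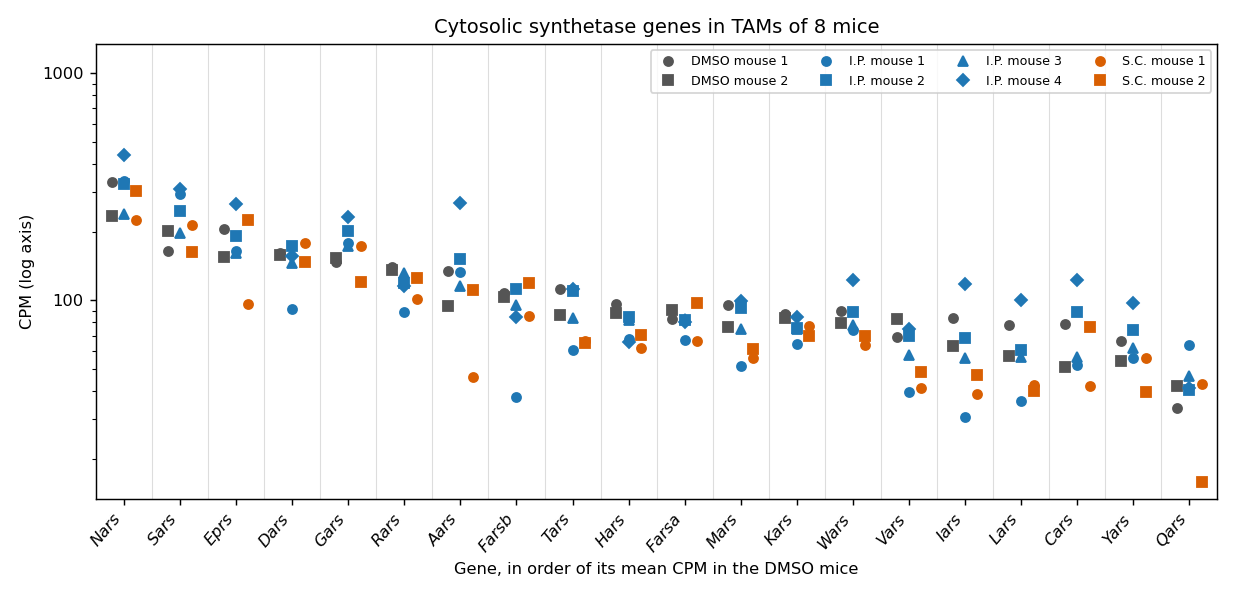
CPM of the 20 cytosolic synthetase genes on a log axis, 1 point per mouse, with the groups side by side for each gene (grey DMSO, blue I.P., orange S.C.). I.P. mouse 4 is the highest of the 8 for several ATF4-linked genes such as Aars (268 CPM), I.P. mouse 1 is low for Farsb (37.6 CPM) and Iars (30.8 CPM), and S.C. mouse 2 is low for Qars (15.8 CPM).

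The 4 I.P. mice differed among themselves. In I.P. mouse 4, 11 of the 13 ATF4-linked genes were above both DMSO mice and 0 below, where 39.6% of all genes were above, while 0 of the 7 other cytosolic genes were above and 5 below, where 35.1% of all genes were below. In I.P. mouse 1, 12 of the 20 cytosolic genes were below both DMSO mice, where 43.0% of all genes were, and 4 above, where 40.3% were. I.P. mouse 3 had 11 below and 2 above, beside 33.3% and 30.5% of all genes. I.P. mouse 2 had 4 below and 7 above, beside 29.6% of all genes in each direction. I.P. mouse 4 also carried the highest melanoma marker sum of its group, and mitotic genes were lowest in I.P. mouse 1, with a list mean 2.30 log2 units under that of the DMSO mice. Their part in these values was not tested. Farsb, a subunit of the phenylalanine enzyme, gave the lowest estimate, and its value of 37.6 CPM in I.P. mouse 1 stood below 84.1 to 112 CPM in the other 3 and 104 to 107 CPM in the DMSO mice.

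The wider ATF4 programme was higher in the same mice. Of 28 programme genes tested, 13 rose at an unadjusted P under 0.05 in I.P. mice, where 2.55% of all genes were called higher, and 9 of them at least 2-fold, where 2% of all genes passed both criteria in either direction. The median log2 fold change was 0.77. Atf4 itself was at 72.9 and 141 CPM in the DMSO mice and 409, 176, 232 and 203 CPM in the I.P. mice, with a log2 fold change of 1.24 ± 0.42. Asns, the asparagine synthetase that makes the amino acid rather than charging it, was at 25.2 and 24.0 CPM in the DMSO mice and 138, 76.4, 36.9 and 146 CPM in the I.P. mice, with a log2 fold change of 1.998 ± 0.53. Both genes had every I.P. mouse above both DMSO mice. Chac1, a glutathione-degrading enzyme, Trib3, a pseudokinase, and Ddit3, the CHOP factor, had log2 fold changes of 2.11 ± 0.39, 1.77 ± 0.47 and 1.19 ± 0.29. The edgeR adjusted p was 0.980 for each of these 5 genes. Fewer programme genes were called without DMSO mouse 1, and likewise without DMSO mouse 2, in fits with a lone DMSO mouse. Fewer of all genes were called in those fits too. Against the folds of these 5 genes, the charging enzymes' estimates were small, with the highest of the 13 linked genes, Aars, at 0.54. The 28 programme genes ranged from -0.42 to 2.38, with 3 of them lower than in the DMSO mice, so some lay below Aars.

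**Figure D2:**
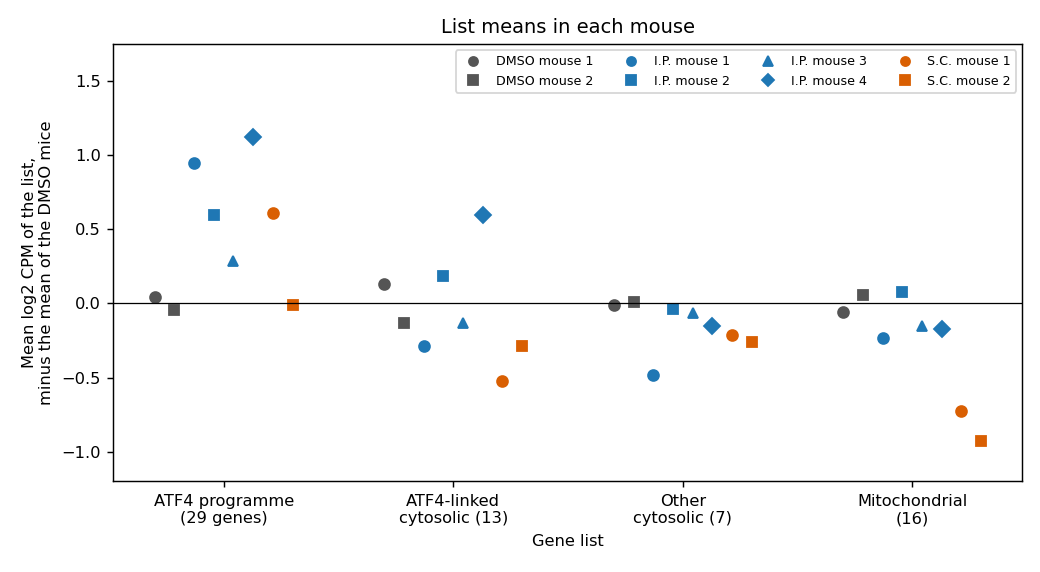
Mean log2 CPM over the genes of 4 lists in each mouse, after subtracting the mean of the 2 DMSO mice, 1 point per mouse. The ATF4 programme is above the DMSO mice in all 4 I.P. mice (0.29 to 1.12). The ATF4-linked cytosolic genes lie from -0.29 in I.P. mouse 1 to 0.59 in I.P. mouse 4. The mitochondrial genes are lowest in the 2 S.C. mice (-0.73 and -0.93). These 2 means include genes under 8 counts, Pars2 and Vars2 in S.C. mouse 1 and Ears2 and Mars2 in S.C. mouse 2. The median S.C. log2 fold change of the 16 genes was -0.30.

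I.P. mouse 1 had the widest gap between the programme and the linked synthetases. Its programme mean stood 0.95 log2 units above that of the DMSO mice while the mean of its 13 linked genes stood at -0.29. In I.P. mouse 4 the 2 values were 1.12 and 0.59, in I.P. mouse 2 they were 0.60 and 0.19, and in I.P. mouse 3 they were 0.29 and -0.13. The linked genes minus the 7 other cytosolic genes came to 0.30 and 0.01 log2 units in the DMSO mice, to 0.35, 0.38, 0.09 and 0.90 in the I.P. mice and to -0.15 and 0.13 in the S.C. mice. The first value of the I.P. group lay near the higher DMSO mouse, and I.P. mouse 4 was the one far from both.

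By the S.C. route the cytosolic genes leaned lower. The comparison uses the same DMSO mice as the I.P. comparison, so the routes are not independent of each other there. None of the 20 passed an unadjusted P under 0.05 with edgeR's quasi-likelihood test, a call made for 5.41% of all genes (632 of 11680), or with the likelihood ratio test or DESeq2. The median log2 fold change was -0.31, beside 0.02 over all genes, and 18 of 20 estimates were negative. Both S.C. mice lay below both DMSO mice for 9 members (Hars, Iars, Kars, Lars, Mars, Rars, Tars, Vars and Wars), where 18.5% of all genes did so, and above both for 0, where 16% did. The 13 ATF4-linked genes had a median of -0.35 and the 7 others -0.21. Scaling by library size only gave a median of -0.46, with Iars, Lars and Vars called, while the median of all genes then moved to -0.13. The mean log2 CPM of the 20 was 6.72 and 6.56 in the DMSO mice, against 6.23 and 6.36 by S.C. and between 6.28 and 6.97 by I.P.

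Iars, the isoleucine enzyme (chromosome 13, 49682100 to 49734267, plus strand), was at 83.6 and 63.1 CPM in the DMSO mice, 30.8, 68.4, 55.5 and 117 CPM in the I.P. mice and 38.6 and 46.9 CPM in the S.C. mice. Both S.C. mice were below both DMSO mice, while the I.P. mice ranged from the lowest to the highest value of the 8. The log2 fold change by S.C. was -0.78 ± 0.34, with an interval from -1.63 to 0.07 and an edgeR adjusted p of 0.940.

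Vars, the valine enzyme (chromosome 17, 35000987 to 35016322, plus strand), was at 68.6 and 82.5 CPM in the DMSO mice, 39.6, 69.4, 57.6 and 74.7 CPM in the I.P. mice and 41.1 and 48.4 CPM in the S.C. mice. By S.C. the log2 fold change was -0.75 ± 0.32 (interval -1.56 to 0.05), with the S.C. mice again below both DMSO mice. Lars, the leucine enzyme (chromosome 18, 42202298 to 42262194, minus strand), was at 78.2 and 56.6 CPM in the DMSO mice, 36.0, 60.3, 56.4 and 101 CPM in the I.P. mice and 42.3 and 39.9 CPM in the S.C. mice. Its log2 fold change by S.C. was -0.71 ± 0.34 (interval -1.56 to 0.14). These 3 enzymes charge the branched-chain amino acids, and the unadjusted P of Vars, the lowest of the 20, was 0.0617 in edgeR.

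The same genes fell into other groups by structure. Synthetases belong to classes I and II by the fold of their catalytic domain, and 9 cytosolic members are class I and 10 class II, with Eprs, a fusion of both, left out. The class I median by S.C. was -0.36, with 9 of 9 estimates negative, and the class II median was -0.09, with 8 of 10 negative. By I.P. the medians were -0.10 and -0.14. The 8 enzymes of the multisynthetase complex, a cytosolic assembly, had a median of -0.32 by S.C. and -0.12 by I.P., beside -0.23 and 0.16 for the 12 outside it. The differences between these groups were not tested. Their partners were 11 tested genes for complex scaffolds, tRNA editing, export and end maturation and mitochondrial amidation, with Mtfmt. Of these, 0 passed an unadjusted P under 0.05 by either route in edgeR, with medians of -0.01 by I.P. and 0.05 by S.C. Over all genes 3.43% passed by I.P. and 5.41% by S.C., so 0 of 11 is near those shares.

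Some calls rested on which S.C. library was used. On leaving out S.C. mouse 1, Lars and Qars were called among the cytosolic genes, and without S.C. mouse 2, Aars, Eprs, Iars and Vars were, in fits that assume the lone S.C. mouse to vary as the DMSO mice do. Calls over all genes then grew from 632 to 3714 (30.4%) and 4203 (34.0%). Of the ATF4 programme, 3 of 27 genes tested rose in S.C. mice (Slc7a11, Atf3 and Phgdh), where 2.5% of all genes were called higher, and 3 of 27 at least 2-fold, where 5.06% of all genes passed both criteria in either direction. Fewer programme genes were called higher without DMSO mouse 1, and more without S.C. mouse 1 or without S.C. mouse 2. Calls over all genes moved the same way in these fits.

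Between the routes, 3 of the 36 members differed at an unadjusted P under 0.05 in edgeR's quasi-likelihood test, Aars, Lars2 and Rars2, a call made for 8.59% of all genes (1049 of 12206). Aars and Lars2 were lower by S.C., where 5.34% of all genes were called lower, and Rars2 was higher. No member had an adjusted p under 0.05. The 13 ATF4-linked genes all had negative estimates, with a median of -0.41, and the 7 other cytosolic genes had a median of 0.02. Over all genes, 5880 of 12206 estimates were negative, with a median of 0.02. The 13 genes were read in the same mice, and the difference between linked and other genes was not tested. Aars differed by -1.07 ± 0.46 on the log2 scale (interval -2.11 to -0.02, edgeR adjusted p 0.573), with both S.C. mice below all 4 I.P. mice, 46.0 and 111 CPM against 116 to 268 CPM. Its unadjusted P moved from 0.0472 in edgeR to 0.106 on leaving out I.P. mouse 4 and to 0.275 on leaving out S.C. mouse 1, the 2 mice with the highest melanoma marker sums. Without I.P. mouse 1 or 2 it was 0.0543 or 0.0638 in edgeR. I.P. mouse 4 had the highest Aars and S.C. mouse 1 the lowest. The part of melanoma cells in these values was not tested. The same edgeR test covered 27 genes of the ATF4 programme between the routes. It called 4 of them lower in the S.C. mice (Trib3, Chac1, Ddit3 and Sesn2), beside the 5.34% of all genes given above. Slc1a5, a neutral amino acid carrier, was the 1 called higher, where 397 of 12206 genes were. These calls rest on the unadjusted threshold of 0.05, and the edgeR adjusted p ran from 0.394 for Trib3 to 0.532 for Sesn2. Chac1 had only 3 counts in S.C. mouse 2.

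The mitochondrial genes gave no calls against DMSO. By I.P., 0 of 16 passed an unadjusted P under 0.05 in edgeR's quasi-likelihood test, the likelihood ratio test or DESeq2, beside the 3.43% of all genes given above. The median log2 fold change was -0.07, with 7 higher and 9 lower, and no gene had its 4 I.P. mice all above or all below the DMSO mice, where 7.29% and 6.88% of all genes did. The mean log2 CPM of the 16 was 4.18 and 4.30 in the DMSO mice and 4.01 to 4.32 in the I.P. mice. By S.C., 0 of 16 were called with the same 3 tests, where the first called 5.41% of all genes. The median was -0.30, with 5 higher and 11 lower, and 5 genes (Iars2, Mars2, Nars2, Sars2 and Vars2) had both S.C. mice below both DMSO mice, where 18.5% of all genes did.

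The S.C. libraries held scattered low values, 2 of them in the genes just named, Mars2 and Vars2. S.C. mouse 1 had 1 count for Pars2 and 1 for Vars2, and S.C. mouse 2 had 6 counts for Mars2 and 0 for Ears2, which allows a level of up to 0.217 CPM at a floor of 3 counts, counting error only. The same S.C. mouse 1 had 8.44 CPM of Ears2, and S.C. mouse 2 had 5.35 CPM of Pars2 and 3.40 CPM of Vars2. Each low value was therefore absent from the other S.C. mouse. Between the S.C. mice the 16 genes differed by a median of 1.33 log2 units, and 5 of them by more than 4-fold, where the DMSO mice differed by a median of 0.40 and only Lars2 exceeded 4-fold. Counting only members with at least 8 counts in every mouse compared, the S.C. median was -0.11 in place of -0.30. It was -0.12 without DMSO mouse 2 and -0.45 without DMSO mouse 1. Without S.C. mouse 1, Ears2, Fars2, Mars2, Nars2 and Sars2 were called, and without S.C. mouse 2, Cars2, Lars2, Pars2 and Vars2, with no gene in both sets. These fits called 30.4% and 34.0% of all genes. Fars2 and Cars2 were then higher than in the DMSO mice and the other 7 lower.

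**Figure D3:**
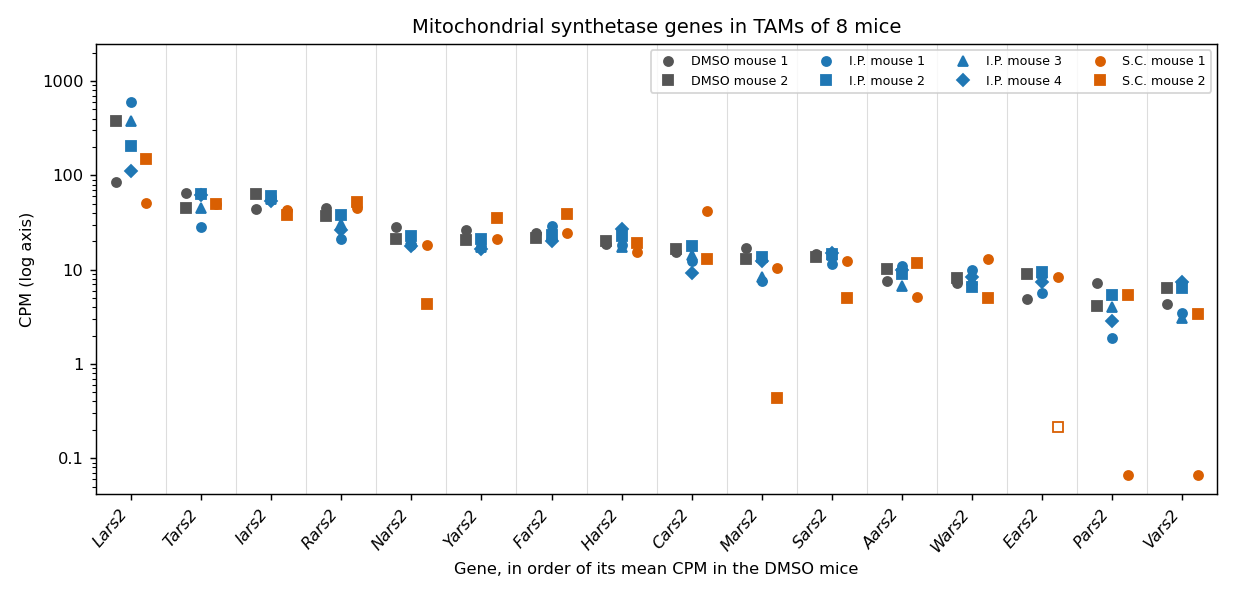
CPM of the 16 mitochondrial synthetase genes on a log axis, 1 point per mouse, grouped and coloured as for the cytosolic genes. The open square stands for the Ears2 value of 0 in S.C. mouse 2, drawn at its floor of 0.217 CPM, and the other points under 1 CPM are Mars2 in S.C. mouse 2 and Pars2 and Vars2 in S.C. mouse 1.

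Pars2, the proline enzyme (chromosome 4, 106651069 to 106655282, plus strand), had the lowest I.P. estimate. It was at 7.15 and 4.16 CPM in the DMSO mice, 1.90, 5.44, 3.98 and 2.88 CPM in the I.P. mice and 0.0659 and 5.35 CPM in the S.C. mice. Its log2 fold change by I.P. was -0.67 ± 0.52 (interval -1.86 to 0.52), and I.P. mouse 2 lay between the DMSO mice. This value was -0.23 without DMSO mouse 1 and -1.01 without DMSO mouse 2. Mars2, the methionine enzyme (chromosome 1, 55237177 to 55248470, plus strand), was at 16.9 and 12.9 CPM in the DMSO mice, 7.58, 13.6, 8.29 and 12.4 CPM in the I.P. mice and 10.4 and 0.433 CPM in the S.C. mice. Its log2 fold change was -0.52 ± 0.33 by I.P. By S.C. it was -1.45 ± 1.28, with an interval from -4.62 to 1.72. Without S.C. mouse 1 the S.C. value was -5.08, so it rested on the 6 counts of S.C. mouse 2.

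Vars2, the valine enzyme (chromosome 17, 35655634 to 35667592, minus strand), was at 4.36 and 6.47 CPM in the DMSO mice, 3.48, 6.36, 3.08 and 7.32 CPM in the I.P. mice and 0.0659 and 3.40 CPM in the S.C. mice. Its log2 fold change by S.C., -1.64 ± 1.57, had an interval from -5.53 to 2.24. It became -6.22 without S.C. mouse 2. Rars2, the arginine enzyme (chromosome 4, 34614957 to 34660167, plus strand), was at 45.1 and 36.8 CPM in the DMSO mice, 21.3, 38.3, 30.1 and 26.0 CPM in the I.P. mice and 45.0 and 51.6 CPM in the S.C. mice. Both S.C. mice were above all 4 I.P. mice, and I.P. mice 1, 3 and 4 were below both DMSO mice. Its log2 fold change was -0.50 ± 0.29 by I.P., and S.C. exceeded I.P. by 0.77 ± 0.32 (interval 0.04 to 1.49, edgeR adjusted p 0.556). The unadjusted P, 0.0407, was over 0.05 in edgeR after leaving out any one of I.P. mice 1, 3 and 4 or either S.C. mouse, with library size as the only scaling and with the replicate block.

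Lars2, the leucine enzyme (chromosome 9, 123366927 to 123462666, plus strand), varied widely within groups without low counts. It was at 85.1 and 380.3 CPM in the DMSO mice, 603, 203, 374 and 112 CPM in the I.P. mice and 51.5 and 149 CPM in the S.C. mice. The DMSO mice alone differed by 2.16 log2 units, and they spanned 3 of the 4 I.P. mice and 1 S.C. mouse. The log2 fold change of Lars2 was 0.47 ± 0.72 by I.P. It came to -1.22 ± 0.82 by S.C., to -1.93 without DMSO mouse 1 and to 0.23 without DMSO mouse 2. S.C. mice were lower than I.P. mice by -1.68 ± 0.71 on the log2 scale (interval -3.31 to -0.05, edgeR adjusted p 0.569), with the groups overlapping. The unadjusted P of this difference, 0.0451, was 0.107 without I.P. mouse 1 in edgeR, 0.0723 without I.P. mouse 3 and 0.231 when S.C. mouse 1 was left out. With all 3 groups in one fit it was 0.0642 in edgeR.

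The level of Lars2 was set beside that of Rn45s, the ribosomal RNA precursor, a gene chosen after the values were seen, because the mouse Lars2 transcript is known to carry a stretch like ribosomal RNA. Rn45s was at 247 and 925 CPM in the DMSO mice, 1132, 484, 1348 and 261 CPM in the I.P. mice and 418 and 159 CPM in the S.C. mice. The 3 mice with the most Rn45s, DMSO mouse 2 and I.P. mice 1 and 3, were also those with the most Lars2. S.C. mouse 1 had the least Lars2 but the fifth highest Rn45s. Lars2 exceeded the median of the other 15 mitochondrial genes 5.04 times in DMSO mouse 1, 22.9 times in DMSO mouse 2 and 48.7 times in I.P. mouse 1. The part of ribosomal RNA reads in the Lars2 counts was not tested.

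**Figure D4:**
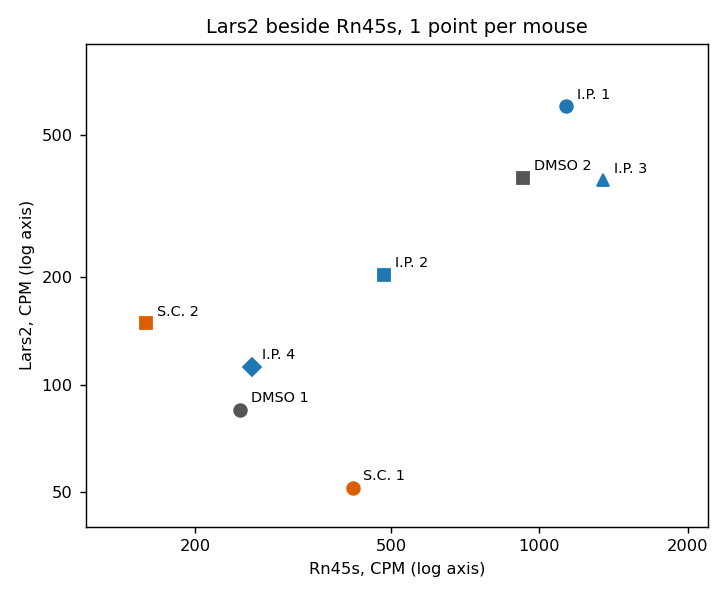
Lars2 against Rn45s in CPM, both on log axes, 1 labelled point per mouse. I.P. mouse 1, I.P. mouse 3 and DMSO mouse 2 lie at the upper right (374 to 603 CPM of Lars2), and the S.C. mice lie off the run of the other 6 points, on opposite sides.

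Reads of some members could be shared with other genes. In GENCODE vM21, 11 members overlap another protein-coding gene, 10 of them on the opposite strand alone. Hars and Hars2, which face away from each other on chromosome 18, share 198 bases, and Mars shares 68 bases with Ddit3. The counting is not stated to use strand. Mars was at 95.4 and 76.2 CPM in the DMSO mice and 51.5, 92.9, 74.9 and 99.4 CPM in the I.P. mice, where Ddit3 was at 42.8 and 36.6 and at 119, 65.8, 77.7 and 101 CPM.

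**Figure D5:**
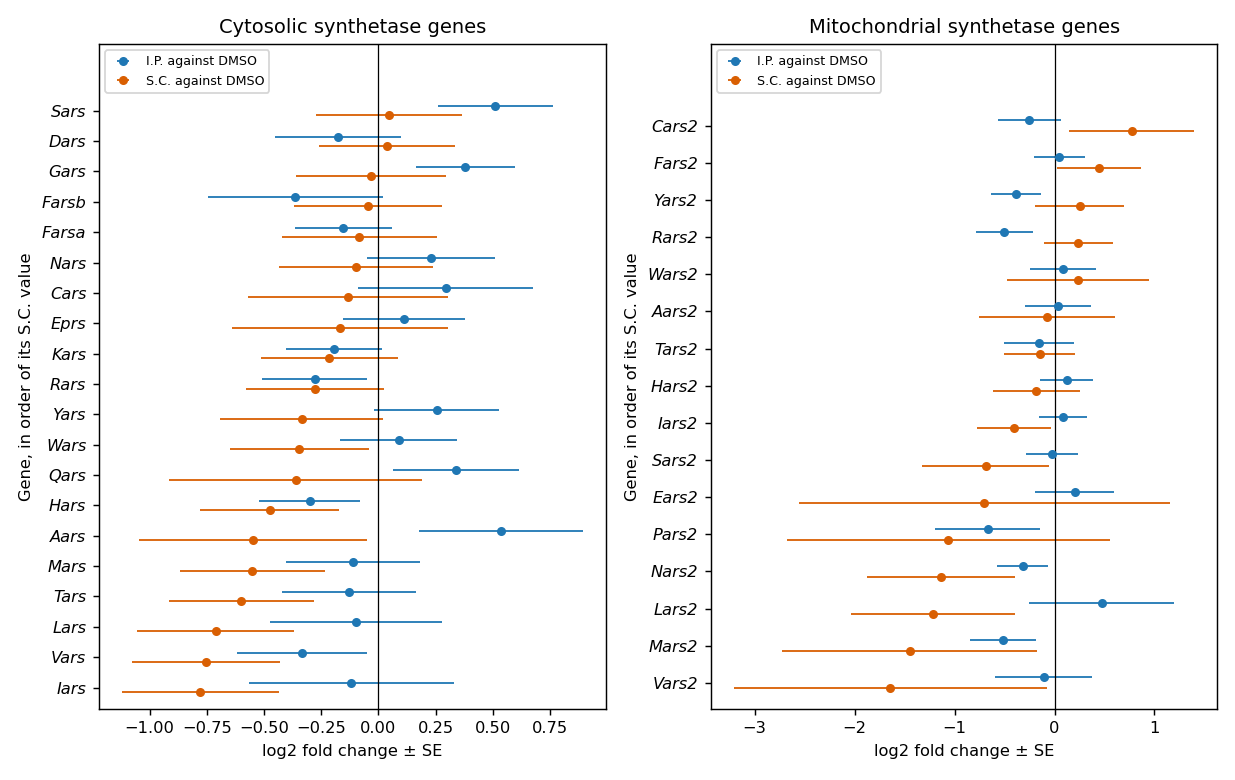
Log2 fold changes against the DMSO mice with their standard errors for the 20 cytosolic (left) and 16 mitochondrial (right) genes, I.P. in blue and S.C. in orange, in order of the S.C. value, with separate horizontal scales. Of the S.C. estimates, 18 cytosolic and 11 mitochondrial ones are negative, and the standard errors reach 1.86 for Ears2.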

How the data were processed

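RNA-seq of sorted TAMs from 8 mice was used. The authors deposited whole-number counts per gene symbol, not normalized. The paper's methods name bowtie2 and RSEM, the submitters' processing notes name TopHat2, edgeR and mm10, and which made the file is not settled here. Mice were grouped by their labels, which do not say that replicates share a batch. Members and lists were chosen with earlier results of these data known.

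The analysis used edgeR 4.0.16 in R 4.3.3, and DESeq2 1.42.0 as an alternative. Each pair of groups was fitted alone on genes kept by filterByExpr (minimum count 10, minimum total count 15), with TMM scaling and the two-sided quasi-likelihood test, and Benjamini-Hochberg adjustment over all genes tested. Log2 CPM used a prior count of 2. SEs are the estimate over the root of F, and 95% intervals use edgeR's degrees of freedom. The floor was 3 counts, 0.168 to 0.217 CPM. The procedure was tested on simulated data.

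Named members are those with an unadjusted P under 0.05 in any comparison, the 3 cytosolic and 3 mitochondrial ones with the largest absolute log2 fold change against DMSO by each route, and Gars and Kars. Of the other lists used here, up to 4 genes with an unadjusted P under 0.05 were named in order of p, with Atf4, Asns, Chac1, Trib3 and Ddit3. Other members named beside a count, and Farsb, Farsa, Qars, Sesn2, Rn45s and Exosc6, were added after their values were seen. Positions are from GENCODE vM21, promoters from RefSeq (GRCm38.p6). Alternatives were no filter, 1 CPM in 2 samples, RLE, library size only, a single fit of all groups, DESeq2, the likelihood ratio test, a replicate block and leaving out each mouse, and, added after the data were seen, a crossed block and members with at least 8 counts. Same-numbered mice did not deviate together (r from -0.144 to 0.075), so no block was used. Some items are not reported here.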

Additional observations from a re-analysis of the deposited data

Results flagged for a closer look

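Of 36 members tested in the 4 I.P. mice, 1 had a mouse set apart from the rest of its group. Farsa, a subunit of the phenylalanine enzyme, was at 66.8 CPM in I.P. mouse 1 against 80.6 to 83.1 CPM in the other 3, with 82.7 and 90.6 CPM in the DMSO mice. Chance sets apart about 1 group in 20 by this criterion.

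S.C. and I.P. mice, which differed in route and in dose, differed for 3 members at an unadjusted P under 0.05 in edgeR's quasi-likelihood test. None differed after adjustment. The log2 difference was -1.07 for Aars, -1.68 for Lars2 and 0.77 for Rars2. As 3 of 36 is near the share of all genes called in that comparison, these values are given as they stand.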

How the results depend on the processing

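No member had an adjusted p under 0.05 under the filters, scalings, other tests, single fit of all groups or replicate block tried. On leaving out S.C. mouse 1 or 2, in fits with a lone S.C. mouse, 5 members did against DMSO each time, where 16.2% and 19.5% of all genes did, and 1 did against I.P. without S.C. mouse 1, where 0.553% of all genes did. The count of 0 cytosolic calls by I.P. was 0 to 1 on leaving out a mouse (Sars, without I.P. mouse 3), and those by S.C. 0 to 4 for cytosolic and 0 to 5 for mitochondrial genes. Library size only gave 3 cytosolic calls by S.C. and medians of -0.46 for cytosolic and -0.45 for mitochondrial genes, while it moved the median of all genes to -0.13. On leaving out a mouse the S.C. medians ran from -0.45 to -0.23 (cytosolic) and from -0.45 to -0.12 (mitochondrial), and -0.11 was the mitochondrial median of members with at least 8 counts in every mouse. Members called between the routes numbered 1 to 6 on leaving out a mouse. On leaving out a mouse the S.C. value of Lars2 ran from -2.21 to 0.23, positive without DMSO mouse 2, and that of Gars from -0.34 to 0.18, positive without S.C. mouse 2. With the replicate block, 1 mitochondrial gene was called by S.C. (Mars2), 0 by I.P. and 2 members between the routes (Aars and Lars2, the same with library size only, while all groups in 1 fit called Aars, Cars2 and Rars2). Numbers in the labels do not mark a shared batch and same-numbered mice did not correlate, so this is not a paired design. With the S.C. numbers crossed, 0 cytosolic and 0 mitochondrial genes were called. The cause of these shifts was not tested.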
